A study of Drosophila melanogaster with 9 samples.

Results

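DNA replication and mitosis genes are described here as 34 genes of 11982 measured ones. The list held 50 names for 49 genes, since *stg* and *string* are the same gene, and 34 of these genes had a probe set with that single gene symbol. The other 15 had no named row here and were not analysed. They were *Mcm7*, *Orc6*, *geminin*, *CycA*, *Cdk1*, *stg*, *polo*, *aurA*, *BubR1*, *pav*, *sti*, *Klp3A*, *cnn*, *asp* and *RnrS*. Each gene was read by 1 probe set except *fzy*, for which the strongest of 3 was used, and the other *fzy* probe sets lay at the bottom of the scale.

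Messenger RNA was measured on Affymetrix Drosophila Genome 2.0 arrays in 3 groups of 3 arrays. The Ph RNAi group was BG3 cells, an established male line from the larval central nervous system, that had received 10 µg of dsRNA per well for 5 days against sequence common to *ph-p* and *ph-d*, which encode the Polyhomeotic subunit of the Polycomb repressive complex PRC1. The Mock RNAi group was BG3 cells after a mock treatment, and a dsRNA control that matches no gene was not part of the design. The third group was wing discs, the precursors of adult wings, cut from *yw* larvae late in the last instar, with 12 to 15 discs of both sexes per array. The study addressed the role of PRC1 both where genes are silenced and where they are transcribed. The replicates are titled biological, but no source says more on separate cultures, so the p-values reflect only how far these samples spread, which may be partly technical. *ph-p* and *ph-d* had no named row, so their transcripts could not serve as a check of the depletion. The study itself reports less Ph protein on a western blot after 5 days of Ph RNAi.

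Before S phase the origin recognition complex and the licensing factor Cdt1 load the MCM helicase on origins, and Cyclin E with Cdk2 starts replication from them. A sliding clamp, its loader and ribonucleotide reductase then serve DNA synthesis. In mitosis, B-type cyclins drive entry, condensin compacts chromosomes, and the Ndc80 complex ties kinetochores to microtubules under the control of Aurora B. Once the spindle checkpoint is satisfied, Fizzy activates the anaphase promoting complex, which destroys cyclins and securin, and motors and bundling proteins complete cell division. Many of these transcripts rise and fall with the cell cycle, so they are abundant in dividing cells.

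The arrays were not all alike. Arrays correlated at r = 0.989 to 0.9933 within Ph RNAi, 0.9917 to 0.9972 within Mock RNAi and 0.9964 to 0.9982 within wing disc, and at 0.9702 to 0.9855 between Ph RNAi and Mock RNAi arrays, across genes, which are not independent replicates. For most of the replication and mitosis genes, Ph RNAi replicate 2 stood below the other 2 Ph RNAi arrays and Mock RNAi replicate 1 above the other 2 Mock RNAi arrays. Results are therefore also given without them. The actin control of the array, as 3′ minus 5′ log2 signal, read 2.03, 2.06 and 1.38 in Ph RNAi and 2.03, 2.26 and 1.73 in Mock RNAi, and 3.12 to 3.34 in wing disc. The same measure of the eIF-4a control read 3.52, 3.46 and 2.93 in Ph RNAi and 2.76, 3.45 and 2.88 in Mock RNAi. Ph RNAi replicate 2 thus lay within the Mock RNAi range for actin, and replicates 1 and 2 lay above it for eIF-4a. The median log2 level of the genes tested was 3.07 on all 3 Ph RNAi arrays and 2.80, 2.98 and 2.89 on the Mock RNAi arrays. The part of these measures in the results was not tested. Markers of mature neurons were weak in the cell line, with 1 of 10 at a mean log2 level of at least 4 in Ph RNAi and 2 of 10 in Mock RNAi. The wing disc genes *vg* and *nub*, used here to check the tissue label, were at median percentiles of 93.3 and 98.3 within the disc arrays and 42.7 and 13.0 within Mock RNAi arrays.

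Log2 levels of all 34 genes were lower on average in Ph RNAi than in Mock RNAi cells, but limma called only *Cdk2* and *Cks30A*. The median log2 change of the 34 genes was -0.67, a level 1.59-fold lower, beside -0.03 for all genes and -0.10 for the 5594 genes with a mean log2 level of at least 4 on the BG3 arrays. A negative change was found for 34 of 34 genes, where 55.5% of all genes and 59.8% of the stronger genes had one. *Cdk2* and *Cks30A* are 5.88% of the 34, beside 1.57% of all genes and 2.84% of the stronger genes called lower at an adjusted p under 0.05. None was called higher, beside 3.2% of all genes, and 0 of 34 were higher at an unadjusted p under 0.05. At that unadjusted threshold 16 of 34 genes (47.1%) were lower, against 8.76% of all genes and 14% of the stronger genes. All 3 Ph RNAi arrays lay below all 3 Mock RNAi arrays for 14 genes (41.2%), against 13.6% of all genes and 20.7% of the stronger genes, and above them for 0. The scale matters for such counts. Centring each array on the median of the genes tested, an alternative chosen after the data had been seen, moved the median log2 change of all genes to -0.21 and that of the 34 genes to -0.85. Calls over all genes were then 339 higher and 507 lower, beside 384 higher and 188 lower on the deposited scale, and 7 of the 34 genes were called lower. Because bulk cultures were measured, fewer dividing cells, a shift between cell cycle phases and less of these RNAs per cell cannot be told apart. The study reports a larger share of cells in G2 after PRC1 depletion, without a smaller share in S phase, measured in cells depleted of Pc. For Ph RNAi it reports that cells still divided at 5 days, the time used here, and stopped proliferating later. The 34 genes were listed with earlier results of these arrays known, so the counts describe them and carry no test of the list.

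**Figure D1:**
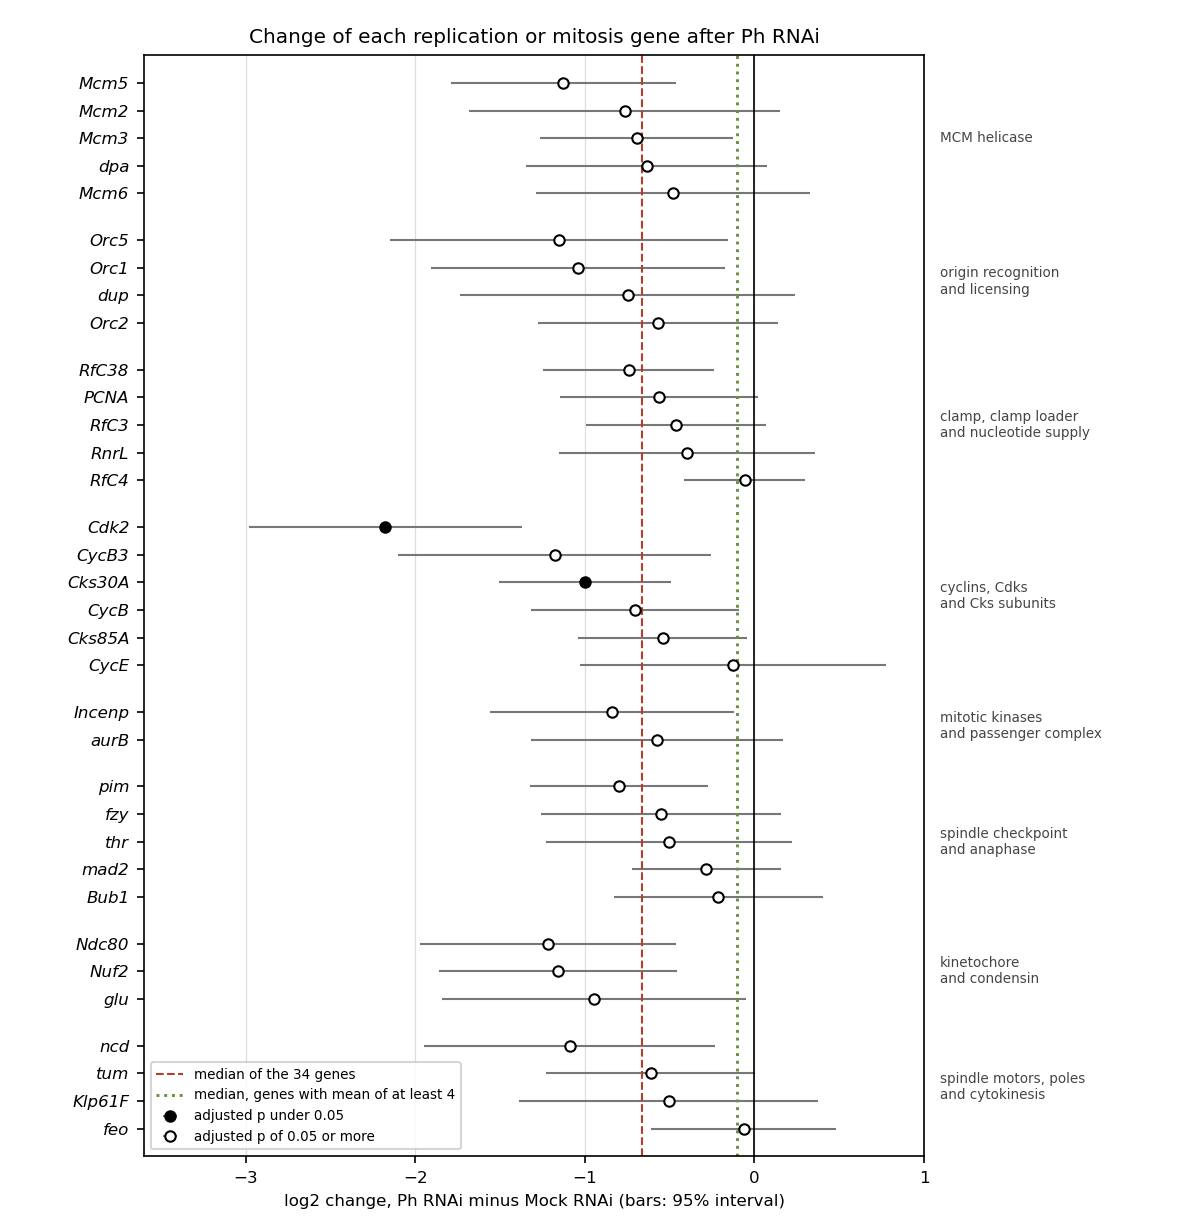
Log2 change, Ph RNAi minus Mock RNAi, of the 34 genes by role, with 95% intervals of the limma fit and filled points for adjusted p under 0.05. All 34 points lie left of 0 and only *Cdk2* and *Cks30A* are filled, while the dashed line marks the median of the 34 genes at -0.67 and the dotted line that of the stronger genes at -0.10.

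The change was largest for *Cdk2*, the kinase that Cyclin E activates at the start of S phase. Its log2 levels were 5.63, 4.76 and 4.77 in Ph RNAi replicates 1, 2 and 3, against 7.57, 6.58 and 7.54 in Mock RNAi replicates 1, 2 and 3, the order used for all log2 levels that follow. Every Ph RNAi array lay below every Mock RNAi array by a wide margin, and all 3 Ph RNAi arrays contributed. *Cdk2* fell by 2.18 ± 0.37 on the log2 scale (SE, n = 3 each, as for every log2 change given with ±), a level 4.52-fold lower (95% interval of the log2 change -2.98 to -1.37, limma adjusted p = 0.00516). The call held under all 14 alternatives run, with limma adjusted p from 0.000281 to 0.0378.

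*Cks30A*, a small subunit that binds Cdks, was at log2 levels of 11.04, 10.06 and 10.57 in Ph RNAi and 11.54, 11.45 and 11.68 in Mock RNAi. The groups did not overlap and the Mock RNAi arrays lay close together, while the Ph RNAi arrays spread over about 1 log2 unit. *Cks30A* fell by 1.00 ± 0.23 on the log2 scale (SE, n = 3 each), a level 2.0-fold lower (limma adjusted p = 0.0322). The call was lost when any Mock RNAi array or Ph RNAi replicate 2 or 3 was left out, with limma adjusted p from 0.0679 to 0.134, and was kept without Ph RNAi replicate 1. It held under 7 of 14 alternatives, over which the adjusted p ran from 0.00667 to 0.134. *Cks85A*, the other Cks subunit, had log2 levels of 9.02, 9.08 and 8.51 in Ph RNAi and 9.45, 9.22 and 9.56 in Mock RNAi, with no overlap and a log2 change of -0.54 ± 0.23 (limma adjusted p = 0.257).

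The cyclins differed among themselves. *CycB3*, a B-type cyclin of mitosis, stood at log2 levels of 5.55, 4.09 and 5.45 in Ph RNAi and 6.69, 6.17 and 5.78 in Mock RNAi, a log2 change of -1.18 ± 0.42 (limma adjusted p = 0.168). *CycB*, the main mitotic B cyclin, read 10.69, 9.59 and 10.77 in Ph RNAi against a narrow 11.02, 11.05 and 11.09 in Mock RNAi, a log2 change of -0.70 ± 0.28 (limma adjusted p = 0.228). In both genes the groups did not overlap, and Ph RNAi replicate 2 was far below the other 2 Ph RNAi arrays. *CycE*, the partner of *Cdk2*, showed no such gap, at 9.69, 8.28 and 9.91 in Ph RNAi and 8.82, 9.61 and 9.83 in Mock RNAi on the log2 scale. Its groups overlapped, the log2 change was -0.13 ± 0.41 with an interval of -1.03 to 0.78 (limma adjusted p = 0.925), and its sign turned, to 0.38 when Ph RNAi replicate 2 was left out and 0.079 when Mock RNAi replicate 3 was. The 6 genes of this group had a median log2 change of -0.85. In 5 (83.3%) all Ph RNAi arrays lay below all Mock RNAi arrays, against 13.6% of all genes and 20.7% of the stronger genes.

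**Figure D2:**
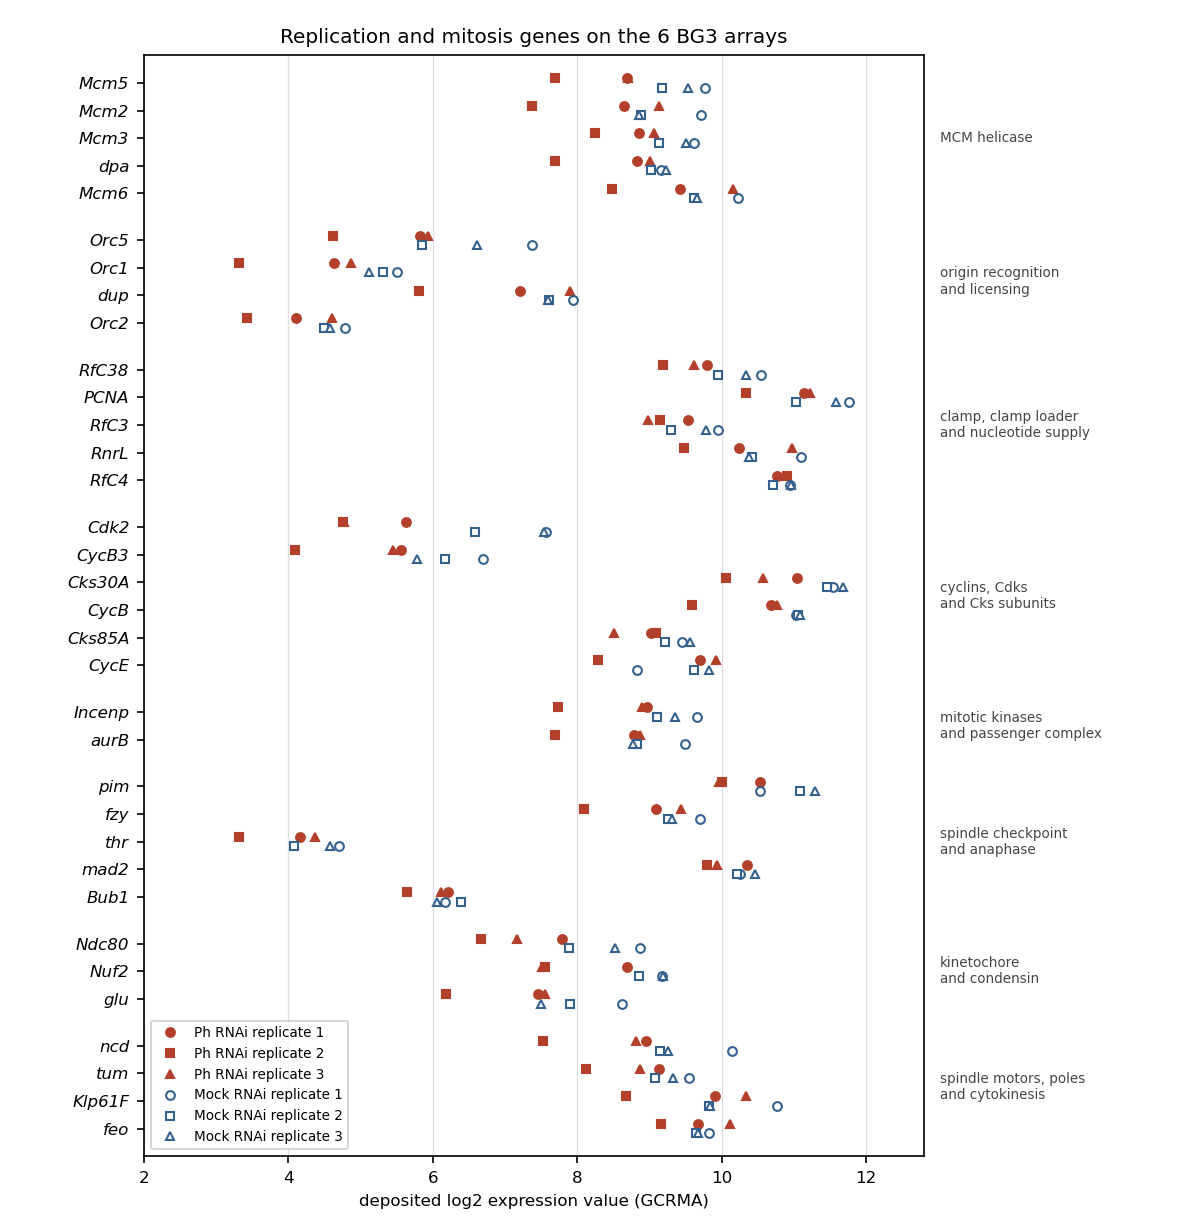
Log2 level of each of the 34 genes on the 3 Ph RNAi arrays (filled) and the 3 Mock RNAi arrays (open), by role, with the replicate number given by the symbol. The filled square, Ph RNAi replicate 2, is the lowest filled symbol in 29 of 34 genes, and *Cdk2* shows the widest gap between the groups.

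The MCM helicase, the ring that unwinds DNA at the fork, had 5 of its 6 subunits measured, with log2 changes of -1.13 to -0.48 and none called. *Mcm5* stood at log2 levels of 8.69, 7.70 and 8.70 in Ph RNAi and 9.77, 9.17 and 9.53 in Mock RNAi, a change of -1.13 ± 0.30 (limma adjusted p = 0.063). *Mcm3* stood at 8.85, 8.25 and 9.07 in Ph RNAi and 9.62, 9.13 and 9.50 in Mock RNAi, a log2 change of -0.69 ± 0.26 (limma adjusted p = 0.195). For both subunits all Ph RNAi arrays lay below all Mock RNAi arrays. The same held for *dpa*, the Mcm4 subunit, at 8.82, 7.68 and 9.01 in Ph RNAi and 9.17, 9.02 and 9.23 in Mock RNAi on the log2 scale, where Ph RNAi replicate 2 made up most of the change of -0.64 ± 0.32 (limma adjusted p = 0.362). *Mcm2* read 8.65, 7.37 and 9.13 in Ph RNAi and 9.71, 8.88 and 8.85 in Mock RNAi. *Mcm6* read 9.41, 8.48 and 10.15 in Ph RNAi and 10.22, 9.62 and 9.66 in Mock RNAi. In these 2 subunits Ph RNAi replicate 3 lay among the Mock RNAi arrays, and the log2 changes of -0.77 ± 0.41 and -0.48 ± 0.37 (SE, n = 3 each) became 0.022 and 0.15 once both Ph RNAi replicate 2 and Mock RNAi replicate 1 were left out.

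Origin recognition and licensing genes had log2 changes of -1.15 to -0.57, none called. *Orc5*, a subunit of the origin recognition complex, stood at log2 levels of 5.82, 4.61 and 5.93 in Ph RNAi and 7.37, 5.85 and 6.61 in Mock RNAi, a change of -1.15 ± 0.45 (limma adjusted p = 0.222). Its Mock RNAi arrays spread at least as widely as its Ph RNAi arrays, and Ph RNAi replicate 3 reached above Mock RNAi replicate 2. *Orc1*, the subunit that binds ATP at origins, read 4.63, 3.31 and 4.86 in Ph RNAi and 5.51, 5.30 and 5.12 in Mock RNAi with no overlap, a log2 change of -1.04 ± 0.39 (limma adjusted p = 0.204). *Orc2* was weak throughout, at 4.11, 3.43 and 4.60 in Ph RNAi and 4.78, 4.50 and 4.57 in Mock RNAi on the log2 scale. Its change was -0.57 ± 0.32 (limma adjusted p = 0.418). These levels are near those at which background correction narrows differences, but whether it did so for *Orc2* was not tested. *dup*, the Cdt1 licensing factor, had the largest spread among Ph RNAi arrays. Its log2 levels were 7.20, 5.80 and 7.90 in Ph RNAi and 7.95, 7.61 and 7.60 in Mock RNAi, with replicate 3 of Ph RNAi within the Mock RNAi range and replicate 2 far below it, and the change of -0.75 ± 0.45 had an adjusted p of 0.451 in limma.

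The clamp, its loader and nucleotide supply had smaller log2 changes, with a median of -0.46 over 5 genes and none called. *PCNA*, the sliding clamp that holds polymerases on DNA, was at log2 levels of 11.14, 10.33 and 11.22 in Ph RNAi and 11.76, 11.03 and 11.58 in Mock RNAi, a change of -0.56 ± 0.26 (limma adjusted p = 0.318). Ph RNAi replicates 1 and 3 lay within the Mock RNAi range. Of the loader subunits, *RfC38* stood at 9.79, 9.19 and 9.61 in Ph RNAi and 10.54, 9.95 and 10.33 in Mock RNAi with no overlap, a log2 change of -0.74 ± 0.23 (limma adjusted p = 0.112). *RfC3* had log2 levels of 9.53, 9.15 and 8.97 in Ph RNAi and 9.95, 9.30 and 9.79 in Mock RNAi, which overlapped, a change of -0.46 ± 0.24 (limma adjusted p = 0.375). *RfC4* read 10.76, 10.91 and 10.77 in Ph RNAi and 10.95, 10.70 and 10.96 in Mock RNAi on the log2 scale, so the groups covered the same narrow range. It had the tightest estimate of the 34 genes, a log2 change of -0.06 ± 0.16 with an interval of -0.41 to 0.30 (limma adjusted p = 0.908), and in it Ph RNAi replicate 2 was the highest Ph RNAi array. *RnrL*, the large subunit of ribonucleotide reductase, read 10.24, 9.47 and 10.97 in Ph RNAi and 11.09, 10.41 and 10.37 in Mock RNAi on the log2 scale, and the groups overlapped, with a change of -0.40 ± 0.34 (limma adjusted p = 0.632).

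The Ndc80 complex and condensin had the lowest median log2 change of the role groups, -1.16 over 3 genes, with none called. *Ndc80*, the microtubule-binding kinetochore protein, stood at log2 levels of 7.79, 6.67 and 7.16 in Ph RNAi and 8.86, 7.89 and 8.52 in Mock RNAi, a change of -1.22 ± 0.34 (limma adjusted p = 0.0797). *Nuf2*, which forms a dimer with Ndc80, stood at 8.69, 7.55 and 7.51 in Ph RNAi and 9.17, 8.86 and 9.19 in Mock RNAi, a log2 change of -1.16 ± 0.32 (limma adjusted p = 0.0732). Neither gene's groups overlapped, and in *Nuf2* Ph RNAi replicate 3 was as low as replicate 2. Without Ph RNAi replicate 1 both were called, at adjusted p of 0.0407 for *Ndc80* and 0.00809 for *Nuf2* in limma, and over 14 alternatives the adjusted p ran from 0.0142 to 0.266 for *Ndc80* and from 0.00809 to 0.234 for *Nuf2*. *glu*, the Smc4 subunit of condensin, read 7.45, 6.18 and 7.55 in Ph RNAi and 8.62, 7.90 and 7.50 in Mock RNAi on the log2 scale, with Ph RNAi replicate 3 above Mock RNAi replicate 3 and a change of -0.95 ± 0.41 (limma adjusted p = 0.27).

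Of the chromosomal passenger complex, *Incenp*, the scaffold that binds Aurora B, stood at log2 levels of 8.96, 7.73 and 8.90 in Ph RNAi and 9.66, 9.11 and 9.35 in Mock RNAi, a change of -0.84 ± 0.33 (limma adjusted p = 0.216). *aurB*, the Aurora B kinase, read 8.79, 7.69 and 8.87 in Ph RNAi and 9.49, 8.82 and 8.77 in Mock RNAi on the log2 scale. The groups did not overlap for *Incenp*. For *aurB*, Ph RNAi replicates 1 and 3 lay within the Mock RNAi range and the change of -0.58 ± 0.34 (SE, n = 3 each) became 0.0345 once both Ph RNAi replicate 2 and Mock RNAi replicate 1 were left out.

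Genes of the spindle checkpoint and of anaphase had log2 changes of -0.80 to -0.21, none called. In 0 of 5 were all Ph RNAi arrays below all Mock RNAi arrays, against 20.7% of the stronger genes. *pim*, the securin that restrains separase, stood at log2 levels of 10.53, 10.00 and 9.96 in Ph RNAi and 10.52, 11.08 and 11.28 in Mock RNAi, a change of -0.80 ± 0.24 (limma adjusted p = 0.0979). Here Mock RNAi replicate 1 was the low Mock RNAi array, and without it *pim* was called (limma adjusted p = 0.0361, with 0.0275 to 0.347 over 14 alternatives). *fzy*, the Cdc20 activator of the anaphase promoting complex, read 9.08, 8.09 and 9.43 in Ph RNAi and 9.69, 9.25 and 9.31 in Mock RNAi on the log2 scale, with Ph RNAi replicate 3 among the Mock RNAi arrays and a change of -0.55 ± 0.32 (limma adjusted p = 0.436). *mad2*, a checkpoint protein, read 10.35, 9.79 and 9.94 in Ph RNAi and 10.25, 10.21 and 10.46 in Mock RNAi on the log2 scale. *Bub1*, a checkpoint kinase, read 6.21, 5.64 and 6.12 in Ph RNAi and 6.16, 6.39 and 6.05 in Mock RNAi on the log2 scale, and *mad2* and *Bub1* had the smallest changes of the group at -0.28 ± 0.20 and -0.21 ± 0.28 (SE, n = 3 each). *thr*, which acts with separase, was weak at 4.16, 3.31 and 4.37 in Ph RNAi and 4.70, 4.08 and 4.58 in Mock RNAi on the log2 scale, and its groups overlapped, with a change of -0.50 ± 0.33 (limma adjusted p = 0.498).

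Among spindle motors and cytokinesis genes, *ncd*, a minus-end kinesin, was the gene whose groups did not overlap. Its log2 levels were 8.94, 7.53 and 8.81 in Ph RNAi and 10.14, 9.15 and 9.26 in Mock RNAi, a change of -1.09 ± 0.39 (limma adjusted p = 0.172). *Klp61F*, the kinesin-5 that slides spindle microtubules, read 9.91, 8.67 and 10.33 in Ph RNAi and 10.77, 9.82 and 9.84 in Mock RNAi on the log2 scale. *tum*, the RacGAP of the cytokinesis ring, read 9.14, 8.12 and 8.87 in Ph RNAi and 9.55, 9.08 and 9.33 in Mock RNAi on the log2 scale, a change of -0.61 ± 0.28 (limma adjusted p = 0.306). *feo*, which bundles microtubules of the central spindle, read 9.68, 9.16 and 10.12 in Ph RNAi and 9.83, 9.65 and 9.67 in Mock RNAi on the log2 scale, and Ph RNAi replicate 3 was its highest array. In all 3 genes the groups overlapped, and for *Klp61F* and *feo* the log2 changes of -0.50 ± 0.40 and -0.06 ± 0.25 (SE, n = 3 each) became 0.29 and 0.24 without Ph RNAi replicate 2 and Mock RNAi replicate 1.

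The 3 Ph RNAi arrays differed in how far they lay below Mock RNAi. Relative to the Mock RNAi mean of each gene, the median deviation of the 34 genes was -0.40 in Ph RNAi replicate 1, -1.34 in replicate 2 and -0.36 in replicate 3 on the log2 scale. It was 0.26, -0.21 and 0.02 in Mock RNAi replicates 1, 2 and 3. The same medians over the stronger genes were -0.05, -0.15 and -0.09 in the Ph RNAi arrays. The pattern ran through nearly all 34 genes. Ph RNAi replicate 2 was the lowest Ph RNAi array in 29 genes (85.3%, against 43% of the stronger genes), replicate 3 in *RfC3*, *Cks85A*, *pim* and *Nuf2*, and replicate 1 in *RfC4*. Mock RNAi replicate 1 was the highest Mock RNAi array in 24 genes (70.6%, against 43% of the stronger genes). Ph RNAi replicate 2 lay below all Mock RNAi arrays in 33 of the 34 genes, replicate 1 in 22 and replicate 3 in 18. Among the 5594 stronger genes the same held for 2528 in replicate 2, 1774 in replicate 1 and 2359 in replicate 3. The range over 3 arrays had a median of 1.18 log2 units in Ph RNAi and 0.59 in Mock RNAi, and exceeded 1 in 22 genes in Ph RNAi and 3 in Mock RNAi.

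**Figure D3:**
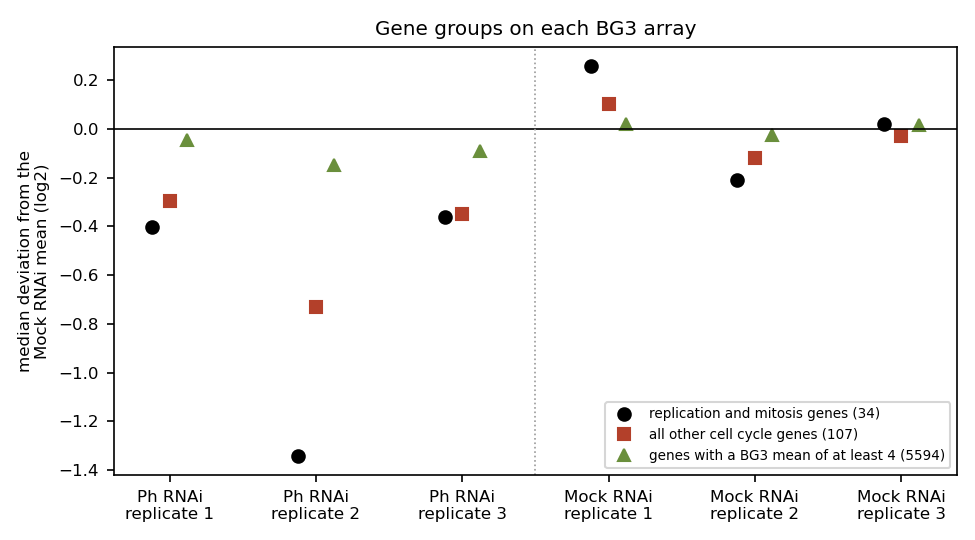
Median log2 deviation from each gene's Mock RNAi mean on each BG3 array, for the 34 replication and mitosis genes, 107 other cell cycle genes and the 5594 genes with a mean log2 level of at least 4. The 34 genes are at -1.34 in Ph RNAi replicate 2 and at -0.40 and -0.36 in replicates 1 and 3, while the stronger genes stay between -0.15 and 0.02.

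Without Ph RNAi replicate 2, 32 of 34 genes (94.1%) kept a negative log2 change, beside 54% of all genes and 56.4% of the stronger genes, the median was -0.32, and only *Cdk2* was called by limma. The genes lower at an unadjusted p under 0.05 were then 8 of 34 (23.5%), beside 7.91% of all genes and 12.9% of the stronger genes. Without Mock RNAi replicate 1, 34 of 34 were negative, with a median of -0.56, and *Cdk2* and *pim* were called. Only 7 of 34 (20.6%) were then lower at an unadjusted p under 0.05, in place of 16 on all 6 arrays, beside 8.39% of all genes and 12.6% of the stronger genes. With both left out, 27 of 34 (79.4%) were negative, with a median log2 change of -0.21 beside -0.07 for the stronger genes, and the remaining Ph RNAi arrays lay below the remaining Mock RNAi arrays in 15 genes (44.1%, against 35.1% of the stronger genes). *Mcm2*, *Mcm6*, *RnrL*, *CycE*, *aurB*, *Klp61F* and *feo* were then positive, between 0.022 and 0.29 on the log2 scale. Over the stronger genes 55.7% were negative under the same selection. At an unadjusted p under 0.05, 7 of 34 genes (20.6%) were lower with both left out, beside 9.32% of all genes and 14.4% of the stronger genes. The omission of both arrays together was chosen after the arrays had been seen. No source names a batch for the BG3 arrays, and what sets Ph RNAi replicate 2 apart was not tested.

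Other cell cycle genes, from lists of the rest of the pathway, also had mostly negative log2 changes. Over 107 of them, 94 had a negative log2 change (87.9%, against 59.8% of the stronger genes), and the median was -0.47. Limma called 4 lower (3.74%), beside 1.57% of all genes and 2.84% of the stronger genes, and 0 higher. All Ph RNAi arrays lay below all Mock RNAi arrays in 52 (48.6%), against 13.6% of all genes and 20.7% of the stronger genes. At an unadjusted p under 0.05, 42 were lower (39.3%), against 8.76% of all genes and 14% of the stronger genes. At the same threshold 1, *tacc*, was higher. Their array medians were -0.30, -0.73 and -0.35 in Ph RNAi replicates 1, 2 and 3 on the log2 scale, so replicate 2 was again the lowest. With Ph RNAi replicate 2 and Mock RNAi replicate 1 left out, 83 of 107 were negative (77.6%, against 55.7% of the stronger genes). Their median log2 change was then -0.25.

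The called genes among them had different roles. *Sas-6*, which builds the centriole cartwheel, had log2 levels of 4.90, 4.19 and 3.95 in Ph RNAi and 6.07, 5.71 and 6.07 in Mock RNAi and fell by 1.60 ± 0.32 (SE, n = 3 each, limma adjusted p = 0.0139). *lin-52*, a subunit of the Myb-MuvB complex that regulates cell cycle genes, had log2 levels of 7.10, 7.10 and 5.82 in Ph RNAi and 8.30, 7.93 and 8.53 in Mock RNAi and fell by 1.58 ± 0.36 (limma adjusted p = 0.0315). In both, Ph RNAi replicate 3 was the lowest array. *Rca1*, an inhibitor of the anaphase promoting complex, had log2 levels of 8.49, 8.27 and 8.34 in Ph RNAi and 9.30, 9.19 and 9.28 in Mock RNAi and fell by 0.89 ± 0.20 (limma adjusted p = 0.0285). *His2Av*, the histone H2A variant, had log2 levels of 12.68, 12.44 and 12.55 in Ph RNAi and 13.26, 13.14 and 13.29 in Mock RNAi and fell by 0.67 ± 0.12 (limma adjusted p = 0.00843). The Ph RNAi arrays of *Rca1* and *His2Av* lay close together, with an SD of 0.11 and 0.12 on the log2 scale (n = 3 each).

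Each list of other genes had a median log2 change below 0. Of the other replication genes 20 of 34 were measured, with 18 negative log2 changes, a median of -0.51 and none called, and 8 lower and 0 higher at an unadjusted p under 0.05. Of 59 other mitosis genes 46 were measured, with 41 negative, a median of -0.58, 1 called lower and 0 higher. That list holds *svr*, which is no cell cycle gene and was entered in error. Of 18 genes of the anaphase promoting complex and cyclin destruction 12 were measured, with 10 negative, a median of -0.38 and 1 called lower. Of 23 G1 and S phase regulators 12 were measured, with 11 negative, a median of -0.52 and 1 called lower. All 11 genes of the DNA damage checkpoint list were measured, with 9 negative, a median of -0.31 and none called. The smallest p in that list was that of *rux*, at a log2 change of -1.01 ± 0.27 (limma adjusted p = 0.0626). *rux* is a Cdk inhibitor rather than a DNA damage checkpoint gene. Next by p were *grp*, at -0.615 ± 0.17 (limma adjusted p = 0.0731), and *lok*, at -1.04 ± 0.29 (limma adjusted p = 0.0776). In both, all Ph RNAi arrays lay below all Mock RNAi arrays. Of 9 genes for histones and their chaperones 6 were measured, with 5 negative, a median of -0.63 and 1 called lower.

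Markers of other cell types differed between the groups. Of 11 measured glia markers 4 (*repo*, *loco*, *nrv2* and *Gli*) were called higher in Ph RNAi, beside 3.2% of all genes, and 0 lower. *wrapper* was lower on all 3 Ph RNAi arrays, a log2 change of -0.89 ± 0.29 (limma adjusted p = 0.126). *moody* changed by -0.09 ± 0.33, and group means of *gcm* and *gcm2* were 1.85 to 2.19 on the log2 scale. The mean log2 level of the 11 per array was 7.17 to 7.60 in Ph RNAi, against 5.78 to 6.07 in Mock RNAi. *repo*, the defining glial transcription factor, averaged 10.23 in Ph RNAi and 3.12 in Mock RNAi on the log2 scale. Of 9 markers of neuroblasts, the neural stem cells, 3 were called higher, *insc*, *pros* and *SoxN*, beside 3.2% of all genes. The mean log2 level of the 9 per array was 3.67 to 4.29 in Ph RNAi and 2.01 to 2.25 in Mock RNAi. *grh* and *l(1)sc* each averaged 2.02 in Ph RNAi, and 1.90 and 1.72 in Mock RNAi. The defining neuroblast genes *mira*, *wor*, *dpn* and *ase* had mean log2 levels of 1.51 to 2.53 in Ph RNAi and 1.71 to 2.76 in Mock RNAi. Of 8 hemocyte markers 1 was called higher (5.88 to 6.60 in Ph RNAi, 5.65 to 6.13 in Mock RNAi), as was *twi*, the only measured one of 3 muscle precursor markers, and 0 of 10 neuron markers were called (2.61 to 2.77 in Ph RNAi, 2.72 to 3.02 in Mock RNAi). The part of these cell type markers in the levels of replication and mitosis genes was not tested.

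In wing disc the genes were read only as percentile ranks among the 11982 genes of the same array, since the disc arrays had another scale. A rank compares signals of different probe sets, which differ in response, and gives no number of molecules. The 34 genes had median percentiles of 59.3 to 97.9 on the wing disc arrays, with a median over genes of 86.4, and 27 stood at or above percentile 75 and 13 at or above percentile 90. On the Ph RNAi arrays they ranged from 53.7 to 94.5 with a median of 79.2, with 23 and 4 genes above these marks, and on the Mock RNAi arrays from 55.7 to 95.8 with a median of 83.0, with 25 and 7. The disc arrays were close to each other, with at most 3.56 percentile points between the 3 arrays for any of the genes, beside 13.3 in Ph RNAi and 7.99 in Mock RNAi.

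*PCNA* ranked highest in wing disc, at percentiles, given from the lowest array to the highest, of 97.8, 97.9 and 98.2, followed by *Cks30A* at 96.3, 96.8 and 97.0 and *CycB* at 96.4, 96.7 and 96.7. *PCNA* lay above both, which did not differ beyond their spread. *Orc2* ranked lowest at 58.4, 59.3 and 60.1, below *Orc1* at 62.8, 63.2 and 64.3 and *thr* at 63.8, 63.8 and 65.4. The last 2 did not differ beyond their spread.

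Of the 34 genes, 21 had all 3 wing disc percentiles above all 3 Mock RNAi percentiles (61.8%), where 29.2% of all genes did, and 5 had them all below (14.7%), where 32.9% of all genes did. *dup* stood out at percentiles of 84.7, 85.5 and 87.7 in wing disc and 69.3, 69.5 and 71.7 in Mock RNAi. *CycB3* stood at 77.2, 77.3 and 78.2 in wing disc and 59.9, 61.5 and 63.6 in Mock RNAi. *Bub1*, *Mcm2*, *Incenp* and *glu* also ranked at least 10 percentile points higher in wing disc by their medians. The other direction was found for *Cks85A*, at 69.8 to 70.9 in wing disc and 82.2, 84.3 and 84.8 in Mock RNAi, and for *RfC3*, at 77.4, 77.6 and 78.7 in wing disc and 82.9, 86.4 and 87.9 in Mock RNAi. *Nuf2*, *pim* and *mad2* were the other genes whose wing disc percentiles were all below. *Cdk2* had percentiles of 73.2, 74.3 and 74.7 in wing disc, 55.7, 56.6 and 59.1 in Ph RNAi and 63.6, 69.1 and 69.1 in Mock RNAi. Tissue, normalization and the cell line's own history cannot be told apart in these ranks.

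**Figure D4:**
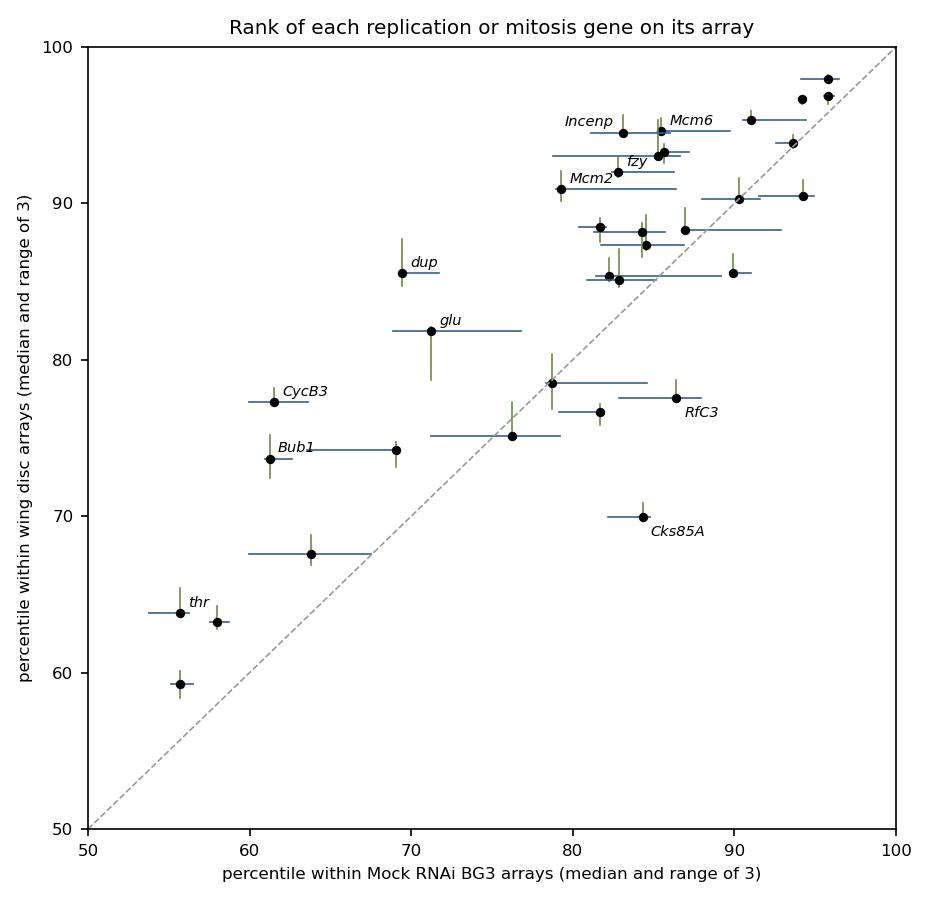
Percentile of each of the 34 genes among 11982 genes, on wing disc arrays (vertical axis) against Mock RNAi BG3 arrays (horizontal axis), as the median with the range of 3 arrays, and the dashed line marks equal rank. Most genes lie above the line, *dup* and *CycB3* farthest, while *Cks85A* and *RfC3* lie farthest below it.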

How the data were processed

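Gene expression was measured on 9 Affymetrix Drosophila Genome 2.0 arrays, 3 each of Ph RNAi BG3 cells, Mock RNAi BG3 cells and wing discs, with biotin-labelled RNA made from 200 ng of total RNA. The authors deposited 1 log2 value for each probe set and array, computed with GCRMA according to the submitters' processing notes, which give no version. GCRMA subtracts background estimated from probe sequence, equalizes arrays processed together and summarizes probes, and it compresses weak signals near the bottom of the scale. BG3 arrays had medians of 2.21 to 2.23 over probe sets and wing disc arrays 0.827 to 0.842, so the wing discs were taken as normalized apart and read only as ranks. Arrays hold no read depth, and their number limits the precision.

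Of 18952 rows, 183 controls and 1 blank row were left out. The platform annotation gave 1 symbol to 13647 probe sets, several to 402 and none to 4719, and 13544 of the first matched a RefSeq gene (Release 6 plus ISO1 MT), which changed 0 symbols. Where a gene had several, that with the highest 9-array mean was taken, which left 11982 genes. Ph RNAi was compared with Mock RNAi in limma 3.58.1 under R 4.3.3 (lmFit, then eBayes with trend), two-sided, with Benjamini-Hochberg adjustment over all genes and calls at an adjusted p under 0.05. Each SE is the moderated one of that fit. The fit was tested on simulated data, and tables were made with pandas 2.3.3 in Python 3.11.15.

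The genes, the other lists and the alternatives were chosen with earlier results of these data known. Every gene with a row is given, with log2 change, SE and adjusted p at least for called genes and the 5 most negative changes. Of the other lists the called genes are given, and for the DNA damage checkpoint those of smallest p. Alternatives were quantile normalization, median centring, a filter on low values, the mean of probe sets, no variance trend, the replicate number as a block and leaving out each array. Promoter motifs were planned but no promoter sequence was used here, and no genome coordinates are given because the sources used here name no build.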

Additional observations from a re-analysis of the deposited data

How the results depend on the processing

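The count of replication and mitosis genes called lower, 2 on the deposited scale, was 4 with only genes of a mean log2 level of at least 4 in the fit (*Mcm5* and *Nuf2* added), 1 without the variance trend (*Cks30A* lost, adjusted p = 0.0769) and 7 with arrays centred on the median of the genes tested. With single arrays left out it was 1 to 4, and with Ph RNAi replicate 2 and Mock RNAi replicate 1 both left out it was 1. It was 2 with quantile normalization, with centring over all probe sets and with the mean of probe sets, and 0 were called higher under any alternative. The genes called lower over all genes, 188, numbered 88 to 158 with single arrays left out, among them 118 with Ph RNAi replicate 3 omitted and 88 and 99 with Mock RNAi replicates 3 and 2 omitted, and 507 with centring over the genes tested. The median log2 change of the 34 genes was -0.86 to -0.32 with single arrays left out, lowest without Ph RNAi replicate 3 and nearest to 0 without Ph RNAi replicate 2.

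Whether replicate numbers pair the samples could not be settled. Over all genes, same-numbered arrays deviated from their group means with r of 0.16, 0.16 and -0.17, and many of these genes were weak. Differently numbered arrays gave r of -0.23 to 0.17, so same-numbered arrays were no more alike by this measure. For the 34 genes, replicate 2 had the lowest median deviation from the Mock RNAi mean in both groups, -1.34 in Ph RNAi and -0.21 in Mock RNAi. With the replicate block 7 of the 34 genes were called lower (*Mcm5*, *Orc5*, *ncd*, *Nuf2* and *Ndc80* added), and 503 genes higher and 263 lower over all genes.

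The log2 change turned positive for *CycE* (-0.43 to 0.38 over single arrays left out, positive when Ph RNAi replicate 2 or Mock RNAi replicate 3 was, and 0.084 with both Ph RNAi replicate 2 and Mock RNAi replicate 1 omitted) and *feo* (-0.30 to 0.18 over single arrays, positive without Ph RNAi replicate 2, and 0.24 without both). Without both, it was also 0.022 for *Mcm2*, 0.15 for *Mcm6*, 0.0345 for *aurB*, 0.29 for *Klp61F* and 0.21 for *RnrL*. The cause was not tested. Over the 34 genes, 444 of the recomputed changes kept their sign and their side of the threshold, 15 passed it anew, 7 lost it and 10 turned. With 3 arrays a group the standard errors of the 34 log2 changes ran from 0.16 to 0.45, which limits what could be called.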
